A study of Mus musculus and Homo sapiens with 22 samples.

Results

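The genes described here are the clustered histone genes of the mouse, those whose symbols begin with Hist1h, Hist2h, Hist3h or Hist4h, as measured by RNA-seq in N2A cells, a mouse neuroblastoma line. The deposited files list 22667 genes, of which 53 carry such a symbol. A gene was kept when it had at least 20 reads in 1 of the 6 N2A files, and 13 of the 53 genes did. The members were thus selected on read counts, and that they are the better covered cluster genes is not a result. They were 5 of the 6 listed genes for linker histone H1 (Hist1h1a, Hist1h1b, Hist1h1c, Hist1h1d and Hist1h1e), 2 of 17 for H2A (Hist1h2ac and Hist3h2a), 4 of 13 for H2B (Hist1h2bc, Hist1h2be, Hist2h2be and Hist3h2ba), 2 of 12 for H4 (Hist1h4i and Hist2h4) and 0 of 5 for H3. The members closest above the threshold were Hist1h2ac with 26 reads in its highest file and Hist1h1a with 28. The cluster genes closest below it were Hist1h2bg with 16 reads, and Hist1h2ae and Hist1h2ai with 15 each. Hist1h1a reached 20 reads in the siCtrl a file alone and Hist1h2ac in the shnSR100 file alone, so these 2 genes had to be lower elsewhere. Hist1h2be reached 20 reads in the shGFP and shnSR100 files alone, so its higher reads there come with the selection.

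Core histones H2A, H2B, H3 and H4 form the nucleosome, and H1 binds the linker DNA between nucleosomes. Most of their mRNA is made from clustered, intronless genes in S phase, when new DNA has to be packaged, and it falls away when replication ends. Such transcripts usually end in a conserved stem-loop, bound by the protein Slbp, instead of a poly(A) tail, while some cluster genes also give polyadenylated forms, mainly in cells that leave the cycle. The labels name polyA RNA as the measured molecule, so the values below are for histone transcripts that entered polyA libraries and not for the whole histone mRNA pool.

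The siRNA cells were harvested 48 hours after transfection and gave 2 libraries of a control siRNA pool (siCtrl a and siCtrl b), 1 library of a pool against U2af65 (siU2af65, letter a) and 1 library of a pool against Ptbp1 (siPtbp1, letter b). U2af65, the product of U2af2, recognises the pyrimidine-rich stretch ahead of 3′ splice sites, and Ptbp1 binds such stretches and keeps neuronal exons out of mRNA. Stable populations transduced with a lentiviral hairpin and kept in 2 ug/mL puromycin expressed a hairpin against GFP (shGFP) or against nSR100 (shnSR100), the neuronal splicing factor encoded by Srrm4, and each of these 2 files combined 2 sequencing runs. The series was designed to study alternative splicing, and the measure here is reads per gene. The labels do not say whether the siCtrl libraries were separate cultures, so a p-value here weighs a knockdown against the spread of 2 libraries, which may be technical. In a bulk sample, fewer cells in S phase and less histone RNA per cell cannot be told apart.

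Reads in genes ranged from 60220620 to 77138004 per file. The 3 targeted genes were each low where they were knocked down. In CPM, counts per 1000000 reads in genes with the library totals scaled by TMM, U2af2 stood at 275 and 228 in the controls and 38.6 in siU2af65, Ptbp1 at 548 and 428 in the controls and 26.6 in siPtbp1, and Srrm4 at 81.3 in shGFP and 17.3 in shnSR100. Of 16 neuroblastoma genes 13 reached 1 RPKM (the authors' reads per kilobase scaled to library size) in some file, and their summed level was 852 to 1303 RPKM per file. The summed levels of fibroblast (8.94 to 29.0 RPKM), immune (7.21 to 12.8), endothelial and epithelial (5.55 to 10.3) and glial markers (2.53 to 5.20) were low in all 6 files. Their part in the results was not tested.

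Sequences upstream of the members are shown as a description, and whether they bear on the values below was not tested. RefSeq promoter windows of the GRCm38.p6 build, from 250 bases before to 50 bases after a gene's start, were at hand for 10 of the 13 members (11 windows), and 4 motifs were searched on both strands: the TATA box TATAAA, the CCAAT box (those 5 letters), the octamer ATTTGCAT and the H1 box AAACACA, which is known from H1 promoters. None of the 4 contains another. The H1 box was present in 4 of the 5 H1 windows, in 0 of the 6 other member windows, in 10.53% of the 38 windows of cluster genes under the threshold and in 7.18% of all 32851 windows. In these 30-base stretches, read 5′ to 3′ on the gene's strand, the capitals mark the H1 box.
Hist1h1b: tggggactaacAAACACAatttgggattgt
Hist1h1c: tgaagtgtaacAAACACAagttgggcgcag
Hist1h1d: tgaggggcaacAAACACAgccacaaggcaa
Hist1h1e: tgaggtgtaacAAACACAactccgcatctg
These stretches lie at chr13:21780724-21780753 on the minus strand, chr13:23738684-23738713 on the plus strand, chr13:23554899-23554928 on the plus strand and chr13:23622655-23622684 on the minus strand. The first base of the box was 117, 112, 122 and 115 bases before the start. No match to these letters was in the window of Hist1h1a. A CCAAT match lay 51 to 56 bases before the start in all 5 H1 windows, and in the stretches below the capitals mark it.
Hist1h1a: cgttagcattcaCCAATcacagcacagcac
Hist1h1b: ttggccgctccaCCAATcacagcccagcac
Hist1h1c: gccgctggagcaCCAATcagcgcgcgcctg
Hist1h1d: cggcgcagggaaCCAATcaccacgcagctt
Hist1h1e: ctggacagcgcaCCAATcacggcgcagctc
They lie at chr13:23763600-23763629 on the plus strand, chr13:21780661-21780690 (minus), chr13:23738741-23738770 on the plus strand, chr13:23554969-23554998 (plus) and chr13:23622593-23622622 (minus). CCAAT occurred in 10 of the 11 member windows, in 81.6% of the windows of cluster genes under the threshold and in 37.4% of all windows. TATAAA occurred in 7 of the 11, in 63.2% and in 13.6%. The octamer, known from H2B promoters, occurred in 3 of the 11 member windows, in 23.7% of the windows of cluster genes under the threshold and in 1.74% of all windows. It is marked below, as its reverse complement where the match is on the opposite strand.
Hist1h2ac: tgggtgggattATGCAAATgaagtttccag
Hist3h2a: gggtaaggcatATGCAAATtaggaaggctc
Hist1h2be: agtaagacttaATTTGCATaagactgccta
These 3 stretches lie at chr13:23684071-23684100 (minus), chr11:58954555-58954584 (plus) and chr13:23586019-23586048 (minus), and their matches start 130, 119 and 67 bases before the start. A match of letters is a description and not a mapped binding site.

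Per length, the highest member was Hist3h2ba, an H2B gene, with a mean of 20.8 RPKM over the 6 files and a range of 12.57 to 27.87. Hist1h1c followed with a mean of 11.5 RPKM and Hist1h2bc with 10.2, and their ranges over the files, 2.55 to 17.92 and 3.28 to 14.29 RPKM, overlapped. Hist3h2a (3.42), Hist2h4 (2.28), Hist1h4i (1.95), Hist1h1b (1.598) and Hist2h2be (1.46 RPKM) formed a middle range whose neighbours overlapped as well, and the remaining 5 members stood under 1 RPKM on average. An order by RPKM depends on the length that the files divide by. That length, computed here from reads and RPKM, ran from 231 to 3470 bases over the members. For Hist1h1d, Hist1h2ac, Hist2h4 and Hist3h2a it was 4.47, 4.25, 3.92 and 3.58 times the span of the RefSeq gene. For Hist1h2bc and Hist1h2be it was 0.04 and 0.05 times that span. In RefSeq, Hist3h2a overlaps Trim17, Hist3h2ba overlaps Gm51864 and Hist1h2be overlaps Gm33387. Hist1h1b and Hist1h1d, for example, had 138 reads each in siCtrl a and 83 each in siCtrl b, but 3.23 against 0.62 RPKM in siCtrl a. The counting rule, the treatment of reads that fit several genes and the use of strand are not given in the sources used here, and histone genes have near-identical copies, so the split of reads between members is uncertain.

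**Figure D1:**
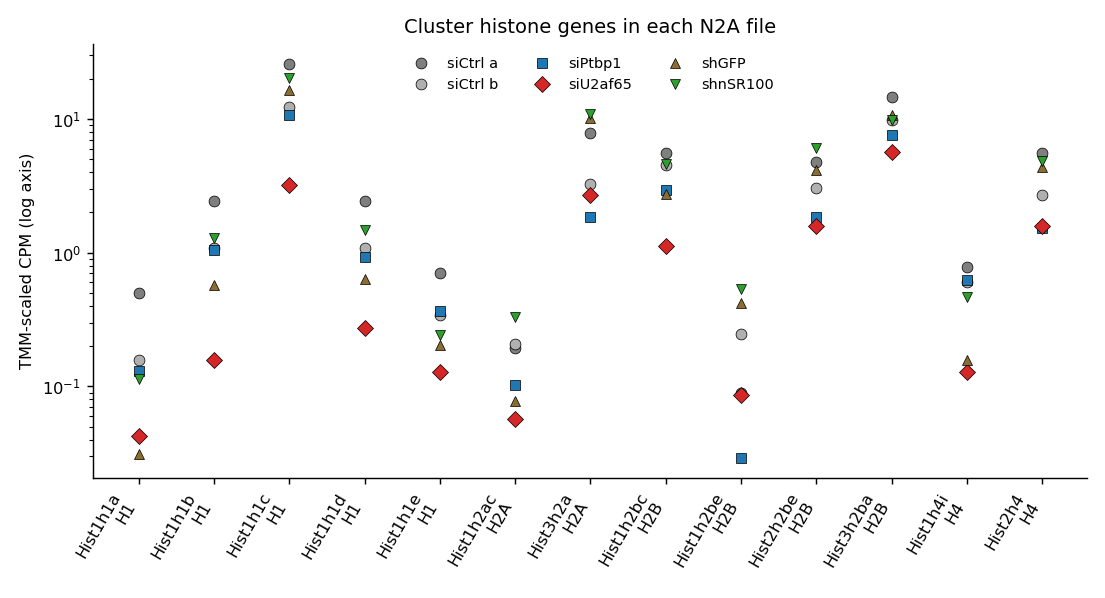
TMM-scaled CPM (log axis) of the 13 cluster histone genes, grouped by histone class along the x axis, with 1 point for each of the 6 N2A files. The siU2af65 point lies below both siCtrl points for all 13 genes, by a hair for Hist1h2be, while the siCtrl a and siCtrl b points are themselves apart, as for Hist1h1c (25.9 against 12.4).

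After U2af65 knockdown the H1 genes were far below the controls. Hist1h1b, whose protein is a replication-dependent H1 subtype, had 2.45 CPM in siCtrl a, 1.09 in siCtrl b and 0.157 in siU2af65, from 138, 83 and 11 reads. On the log2 scale it fell by 3.43, with an SE of 0.77 and an edgeR adjusted p = 0.0385. Both controls were above the knockdown library, and siCtrl a was itself more than 2-fold above siCtrl b. Hist1h1c, the H1 gene with the most reads, had 25.9 and 12.4 CPM in the controls and 3.19 in siU2af65 and fell by 2.55 (SE 0.52, edgeR adjusted p = 0.0286). Without siCtrl a the differences of Hist1h1b and Hist1h1c were -2.77 and -1.95, and without siCtrl b they were -3.89 and -2.97, in fits that leave no test.

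The other H1 genes had a mean under 1 RPKM and were outside the main test, so their values come from a fit without that filter. Hist1h1d went from 2.45 and 1.09 CPM in the controls to 0.272 in siU2af65, which is -2.72 in log2 (SE 0.73, adjusted p = 0.00477 in edgeR over 17622 genes). This call was lost when a mean of at least 10 reads was required (adjusted p = 0.0588). Hist1h1a had 28 and 12 reads in the controls and 3 in siU2af65 (log2 difference -2.88, SE 1.15, adjusted p = 0.0983 in edgeR without the filter), and Hist1h1e had 40, 26 and 9 reads (-2.03, SE 0.90, adjusted p = 0.154). Hist1h1a reached 20 reads in siCtrl a alone and so had to be lower elsewhere. The other H1 genes were all lower in siU2af65 than in either control, beside 38.1% of the 13857 genes with at least 20 reads in a file. Both H1 genes in the main test fell, beside 3.42% of all genes tested.

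Of the H2B genes, Hist1h2bc had 5.53 and 4.50 CPM in the controls and 1.12 in siU2af65 and fell by 2.14 (SE 0.52, edgeR adjusted p = 0.0477). Its controls lay closer together than those of the H1 genes, and without siCtrl a or siCtrl b its difference was -2.01 or -2.26. Hist3h2ba had 14.7 and 9.88 CPM in the controls and 5.71 in siU2af65, which is -1.07 in log2 (SE 0.43) and missed the threshold (edgeR adjusted p = 0.174). It passed in 3 of 9 settings, among them the fit without the filter on low genes (edgeR adjusted p = 0.0399). Hist2h2be had 4.79 and 3.04 CPM in the controls and 1.57 in siU2af65 (-1.28, SE 0.53, edgeR adjusted p = 0.187). Hist1h2be had 5 and 19 reads in the controls and 6 in siU2af65, and its position below siCtrl a rests on the scaling: 0.0859 against 0.0887 CPM with TMM, but 0.0877 against 0.0782 CPM without it.

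Neither H2A nor H4 genes passed the main test. Hist1h4i, with 44 and 46 reads in the controls and 9 in siU2af65, differed by -2.37 in log2 (SE 0.69, edgeR adjusted p = 0.0751). It passed in 2 of 8 settings, both limma, with an adjusted p = 0.0293 on log2(RPKM + 1). In DESeq2 its adjusted p was 0.351. Hist2h4 had 5.53 and 2.72 CPM in the controls and 1.59 in siU2af65 (-1.34, SE 0.58, edgeR adjusted p = 0.202). Hist3h2a, an H2A gene, had 7.87 and 3.28 CPM in the controls and 2.72 in siU2af65 (-0.998, SE 0.59, edgeR adjusted p = 0.341), and its difference shrank to -0.27 without siCtrl a. Hist1h2ac had 11, 16 and 4 reads, too few for a call (edgeR without the filter, adjusted p = 0.397).

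In all, 3 of the 8 members in the main test fell after U2af65 knockdown and 0 rose, beside 3.42% of all 11237 genes called lower. The median log2 difference of these 8 members was -1.74, beside -0.00 over all genes tested. Without the filter 5 of 13 members were called lower (Hist1h1b, Hist1h1c, Hist1h1d, Hist1h2bc and Hist3h2ba), beside 5.45% of 17622 genes. siU2af65 was below both controls in 13 of 13 members (12 of 13 without TMM, and 11 of 11 without Hist1h1a and Hist1h2ac), beside 38.1% of the 13857 genes with at least 20 reads in a file. With the shGFP file added to the controls no gene was called in edgeR, and Hist1h1b, Hist1h1c and Hist1h2bc had adjusted p values of 0.431, 0.389 and 0.424, although their differences were -3.09, -2.51 and -1.92. Over all genes the scaling changed the balance of calls, 384 lower and 205 higher with TMM and 578 lower and 580 higher with library totals, and 3 members were called lower in both.

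**Figure D2:**
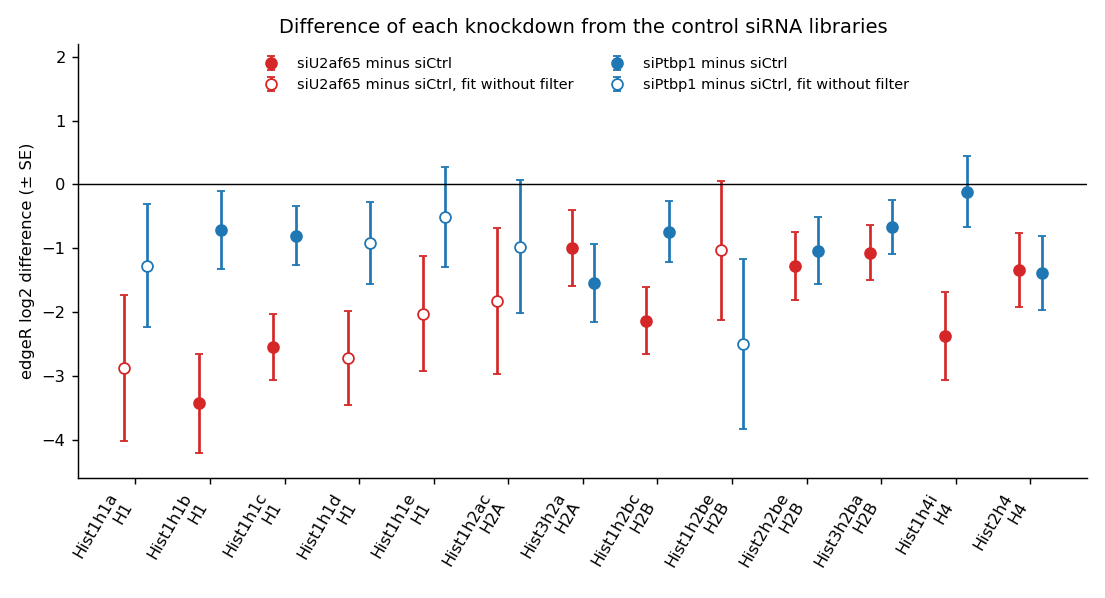
edgeR log2 differences of siU2af65 (red) and siPtbp1 (blue) from the 2 siCtrl libraries for each member, with bars of 1 SE. Filled points come from the main fit (8 members) and open points from the fit without a filter on low genes (5 members). The filled red points of Hist1h1b, Hist1h1c, Hist1h2bc and Hist1h4i lie at -2.14 or lower, and the filled blue points between -1.55 and -0.12.

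Reads summed over each class show how the classes shared in this, in CPM without TMM, with exact binomial 95% intervals that cover counting error only. H1 members held 28.2 (26.9 to 29.6) in siCtrl a, 14.9 (14.1 to 15.8) in siCtrl b and 3.87 (3.42 to 4.37) in siU2af65, which is 17.96% of the mean of the controls. H2B members held 22.1, 17.5 and 8.67 (43.8%), H4 members 5.57, 3.29 and 1.75 (39.6%), and H2A members 7.12, 3.46 and 2.84 (53.6%). These shares turned on single genes and on the control. Without Hist2h4 the H4 share was 20.5%, that of Hist1h4i alone, and without Hist3h2a the H2A share was 30.8%, that of Hist1h2ac alone. Against siCtrl b alone the H2A sum was 81.9%. H1 made up 44.8% and 38.0% of the members' reads in the controls and 22.6% in siU2af65, while H2B went from 35.1% and 44.7% to 50.6%, H2A from 11.3% and 8.84% to 16.6% and H4 from 8.83% and 8.41% to 10.2%. The spread of the 2 controls was wide: the SD was 43.8% of the mean for H1, 48.9% for H2A, 36.3% for H4 and 16.4% for H2B. Against siCtrl a, which shares its letter, siU2af65 held 27.2% of the summed reads of all 13 members (25.4 to 29.0%), and against siCtrl b 43.8% (40.9 to 46.8%). These 2 intervals, exact binomial at 95%, do not overlap, so the choice of control moved the sum by more than counting error.

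**Figure D3:**
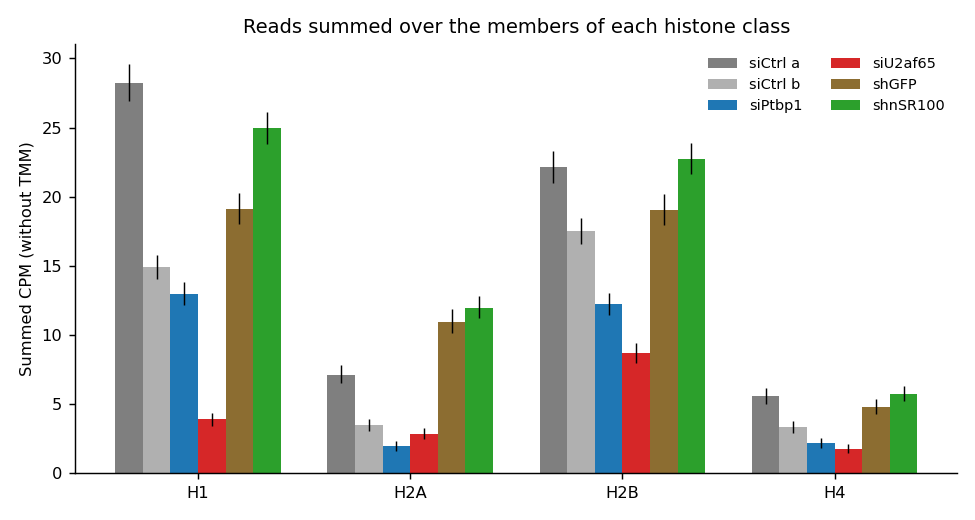
Reads summed over the members of each class, in CPM without TMM, for the 6 N2A files, with exact binomial 95% intervals. The siU2af65 bar is the lowest of the 6 for H1 (3.87), H2B (8.67) and H4 (1.75), while for H2A the siPtbp1 bar is the lowest (1.93 against 2.84).

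After Ptbp1 knockdown no member passed the test. 0 of 8 members were called in edgeR, beside 0.0267% of all genes called lower (3 genes). At an unadjusted edgeR p under 0.05, 308 of all 11237 genes were lower, and so were 2 of the 8 members. These were Hist3h2a, with 7.87 and 3.28 CPM in the controls and 1.86 in siPtbp1 (log2 difference -1.55, SE 0.61, edgeR adjusted p = 0.999), and Hist2h4, with 5.53, 2.72 and 1.54 CPM (-1.39, SE 0.58, adjusted p = 0.999). DESeq2, limma and the other alternatives also called 0 members. All 8 differences were negative with a median of -0.77, beside 0.01 over all genes, but that of Hist1h4i was -0.12 and turned to 0.29 with shGFP added to the controls and to 0.05 without siCtrl a. The median was -0.50 without siCtrl a and -1.20 without siCtrl b. siPtbp1 lay below both controls in 11 of 13 members (9 of 11 without Hist1h1a and Hist1h2ac), beside 31.2% of genes.

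The H1 genes in siPtbp1 were near siCtrl b. Hist1h1b had 1.05 CPM in siPtbp1 against 1.09 in siCtrl b, Hist1h1c 10.7 against 12.4, and Hist1h1e 0.364 against 0.340. The H1 sum in siPtbp1 was 87.0% of siCtrl b (79.7 to 95.04%) and 45.9% of siCtrl a (42.3 to 49.8%). By contrast, the H2A sum was 55.8% of siCtrl b (45.0 to 68.8%), the H4 sum 64.7% (52.5 to 79.5%) and the H2B sum 69.7% (64.0 to 76.0%). Over all 13 members siPtbp1 held 74.7% of the reads of siCtrl b, which shares its letter, and 46.4% of those of siCtrl a.

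The control libraries themselves differed for these genes. siCtrl b lay below siCtrl a in 11 of 13 members (10 of 11 without Hist1h1a and Hist1h2ac), beside 46.1% of genes. The median log2 difference in CPM was -1.02 over the members and 0.04 over all 13857 genes with at least 20 reads in a file. The summed members' reads of siCtrl b were 62.1% of siCtrl a (59.2 to 65.1%). The exceptions were Hist1h2ac (11 reads in siCtrl a and 16 in siCtrl b) and Hist1h2be (5 and 19 reads). The labels do not say what the letters a and b stand for. Read against the control of its own letter, siU2af65 held 27.2% of the members' summed reads and siPtbp1 74.7%, and for the H1 sum 13.7% and 87.0%. A fit with the letter as a term leaves no residual degree of freedom, so this difference between the knockdowns has no test.

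In the direct comparison of siU2af65 with siPtbp1, made in the same fit without the letter, 0 of 8 members passed in edgeR, beside 2.54% of genes called lower in siU2af65. At an unadjusted edgeR p under 0.05, 4 of the 8 members were lower, beside 1356 of all 11237 genes. Hist1h1b had 0.157 CPM in siU2af65 and 1.05 in siPtbp1 (log2 difference -2.71, SE 0.82, edgeR adjusted p = 0.0997), and Hist1h1c 3.19 and 10.7 CPM (-1.74, SE 0.54, adjusted p = 0.104). Without the filter both passed, at adjusted p = 0.0174 and 6.34e-04, beside 4.28% of genes called lower. With library totals in place of TMM both passed as well (edgeR adjusted p = 0.0316 and 0.0429). Hist1h1b passed in these 2 of 8 settings only, with a DESeq2 adjusted p = 0.195. Hist1h1c passed in 5 of 9 settings, with a DESeq2 adjusted p = 0.0314. Hist1h4i (-2.26) and Hist1h2bc (-1.40) were also lower in siU2af65, at adjusted p = 0.125 and 0.192 in edgeR. Hist3h2a had a log2 difference of 0.55 (SE 0.66, adjusted p = 0.689) and Hist2h4 of 0.05 (SE 0.64, adjusted p = 0.981). Hist3h2a stood at 2.72 CPM in siU2af65 and 1.86 in siPtbp1, and Hist2h4 at 1.59 and 1.54.

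By position, a grouping made after the values were seen and given as a description, the 9 Hist1 members lie on chromosome 13, the 2 Hist2 members on chromosome 3 and the 2 Hist3 members on chromosome 11. The Hist1 members together held 34.1 and 20.4 CPM (without TMM) in the controls, 16.6 in siPtbp1 and 5.29 in siU2af65, but most of these reads were those of Hist1h1c, with 1462 of 2178 reads in siCtrl a and 223 of 362 in siU2af65. The Hist2 and Hist3 members together held 29.0 and 18.7 CPM in the controls, 12.6 in siPtbp1 and 11.8 in siU2af65. Single Hist1 members did not all share the low values of Hist1h1c in siU2af65. In the fit without the filter, Hist1h2be differed by -1.03 in log2 from the controls (SE 1.09) and by 1.47 from siPtbp1 (SE 1.59), and Hist1h2ac by -1.82 from the controls (SE 1.15). In the main fit the Hist2 and Hist3 members differed by -1.34 to -0.998 from the controls, and the tested Hist1 members by -3.43 to -2.14. These ranges of point estimates do not overlap. The bars of 1 SE do for the nearest members, Hist1h2bc (-2.14, SE 0.52) and Hist2h4 (-1.34, SE 0.58). Only Hist1h2be, with 5 and 19 reads in the controls and 6 in siU2af65, did not lie below the Hist2 and Hist3 members.

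The hairpin files give a description without replicates. After nSR100 knockdown 12 of 13 members were higher than in shGFP, beside 53.0% of genes (10 of 11 without Hist1h1a and Hist1h2ac), and Hist3h2ba was the exception at 94.1% of shGFP (84.8 to 104%). On log2(RPKM + 1), which understates changes of low genes, 0 of 8 members with at least 1 RPKM differed 2-fold, beside 0.918% of 11877 genes. Their median difference was 0.34, beside 0.04 over all genes. On log2(RPKM + 0.1) and in TMM-scaled log2 CPM 2 of the 8, Hist1h1b and Hist1h4i, were past 2-fold.

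The members whose level in shnSR100 was furthest from that in shGFP had few reads. In CPM without TMM, Hist1h1b in shnSR100 was 223% of shGFP (152 to 335%), from 101 and 37 reads, and Hist1h1d 234% (162 to 342%), from 117 and 41 reads. Hist1h4i was at 303% (148 to 683%), from 37 and 10 reads, and Hist1h2ac at 425% (161 to 1419%), from 26 and 5 reads, although Hist1h2ac became a member through that very file. Among H2B genes Hist1h2bc was at 171% (143 to 206%) and Hist2h2be at 149% (128 to 174%). Hist1h1c, with 1590 and 1057 reads, was at 123% (114 to 133%). The intervals of the other 6 members included 100%. The summed reads were 131% of shGFP for H1 (121 to 141%), 119% for H2B (111 to 129%), 120% for H4 (103 to 140%) and 109% for H2A (98.6 to 121%). Without the member with the most reads in each class the H1 and H2B sums were 216% and 156%. H4 and H2A were then Hist1h4i and Hist1h2ac alone, at 303% and 425%, and Hist1h2ac had to be high in shnSR100 by the selection. The class sums thus followed Hist1h1c, Hist3h2ba, Hist2h4 and Hist3h2a.

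**Figure D4:**
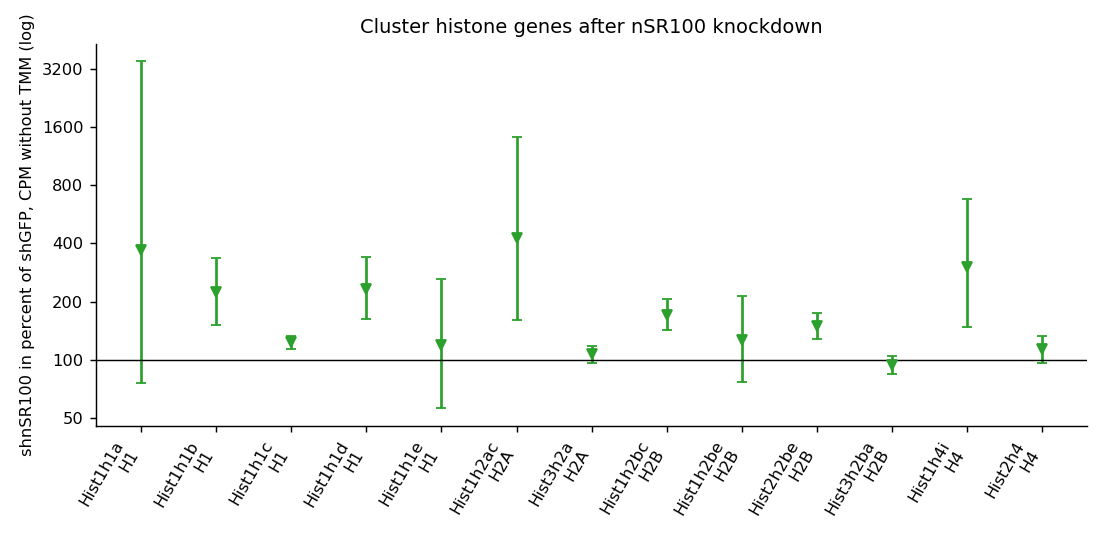
Level of each member in shnSR100 as a percentage of shGFP, in CPM without TMM (log axis), with exact binomial 95% intervals of the 2 read counts. The line marks 100%. The intervals of 7 members lie above it, and those of Hist1h1a, Hist1h1e, Hist1h2be, Hist2h4, Hist3h2a and Hist3h2ba include it.

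The 40 cluster genes under the threshold had few reads, under 20 in every file by the rule that set them apart. Together they had 102 and 114 reads in the controls, 47 in siU2af65, 79 in siPtbp1, 51 in shGFP and 116 in shnSR100, and 8 of them had 0 reads in all 6 files. Their sum in siU2af65 was 43.1% of siCtrl a (29.8 to 61.4%) and 46.5% of siCtrl b (32.4 to 65.8%), and in shnSR100 it was 186% of shGFP (133 to 264%). siPtbp1 stood at 70.8% of siCtrl a (52.1 to 95.9%) and 76.4% of siCtrl b (56.6 to 103%). Unlike for the members, the controls were close, siCtrl b being at 92.7% of siCtrl a (70.3 to 122%). The 5 H3 genes, all under the threshold, had 16 and 21 reads in the controls and 5 in siU2af65. The length that the files use had a median of 143 bases for the 30 of these genes where it could be computed and of 1276 bases for the members.

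Genes that handle or accompany histone mRNA were read beside the members, each list in full. Of 18 genes for the 3′ end processing of histone pre-mRNA, 0 were called after either knockdown. Slbp, which binds the histone stem-loop, had 65.7 and 53.0 CPM in the controls, 38.2 in siU2af65 and 101 in siPtbp1. Its differences from the controls were -0.61 (SE 0.23, edgeR adjusted p = 0.155) and 0.79 (SE 0.22, adjusted p = 0.821), and siU2af65 was lower than siPtbp1, by a difference of -1.40 in log2 (SE 0.27, adjusted p = 0.0261). Ncbp2, a subunit of the cap-binding complex, had a difference of 0.74 after U2af65 knockdown (edgeR adjusted p = 0.133), and Sf3b1, a U2 snRNP subunit, one of -0.53 after Ptbp1 knockdown (adjusted p = 0.999). The list as a whole had a median of -0.08 after U2af65 knockdown, while the 8 tested members had -1.74.

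Histone genes outside the clusters, which have introns and poly(A) tails in most cases, had a median difference closer to 0. Of 10 tested, 3 fell after U2af65 knockdown and 0 rose, beside 3.42% of all genes called lower, with a list median of -0.63. H2afv, an H2A.Z gene, fell by 1.32 (SE 0.26, edgeR adjusted p = 0.0258), H2afx, whose product marks DNA breaks, fell by 1.26 (SE 0.31, adjusted p = 0.0477), and Cenpa, the centromeric H3, fell by 1.09 (SE 0.25, adjusted p = 0.0385). None of the 10 was called after Ptbp1 knockdown in edgeR (median -0.06), where H2afz had the largest difference at 0.48 and H2afj followed at -0.36 (both adjusted p = 0.999). Of 17 histone chaperone genes 0 were called after either knockdown in edgeR. Asf1b, a chaperone of H3 and H4, had differences of -0.60 (edgeR adjusted p = 0.140) after U2af65 knockdown and 0.74 (adjusted p = 0.821) after Ptbp1 knockdown, and it was lower in siU2af65 than in siPtbp1, by a difference of -1.34 in log2 (SE 0.25, edgeR adjusted p = 0.0251).

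S phase and mitosis genes gave the cell cycle side. Of all 11237 genes tested, 3.42% were called lower and 205 genes higher after U2af65 knockdown. Against siPtbp1, 2.54% were called lower in siU2af65. Of 33 DNA replication genes, 3 fell after U2af65 knockdown and 1 rose, with a median of -0.22: Rrm2, a ribonucleotide reductase subunit, fell by 1.52, Cdc45, a helicase factor, fell by 1.38 and Ccne1, cyclin E1, fell by 1.34 (SE 0.23, 0.24 and 0.24, edgeR adjusted p = 0.0130, 0.0179 and 0.0184), while Tyms, thymidylate synthase, rose by 1.00 (SE 0.24, adjusted p = 0.0433). After Ptbp1 knockdown 0 of the 33 passed in edgeR and 32 had positive differences, beside 5870 of all 11237 genes. The median was 0.65, with Cdc6 at 1.28 (edgeR adjusted p = 0.630) and Ccne2 at 1.12 (adjusted p = 0.417). The members' median in siPtbp1 was -0.77, so S phase genes and cluster histone genes had medians of opposite sign there. The 2 controls showed this as well, in siCtrl b minus siCtrl a on log2(RPKM + 1). That median was -0.43 for 9 members and 0.20 for the 33 replication genes, beside 0.14 over all genes. siPtbp1 shares the letter of siCtrl b. Against siPtbp1, 12 of the 33 were lower in siU2af65. Of 22 G2 and mitosis genes 13 fell after U2af65 knockdown, among them Ccna2, Nusap1, Aurka and Aurkb. Cyclin A2 (Ccna2) and the spindle protein gene Nusap1 had differences of -1.75 and -1.61 (SE 0.25 and 0.23, adjusted p = 0.0114 and 0.0115 in edgeR), and the kinase genes Aurka and Aurkb -1.56 and -1.55 (SE 0.25 and 0.27, adjusted p = 0.0137 and 0.0175). Their list median was -1.05, and 0 were called after Ptbp1 knockdown in edgeR (median 0.10). In the hairpin files all 33 replication genes (median 0.61) and all 22 mitosis genes (median 0.64) were higher in shnSR100, and 7 of the 8 histone members with at least 1 RPKM (median 0.34). Over all genes 6242 of 11106 were higher there (median 0.04). The part of the cell cycle in the histone values was not tested.

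Most cluster histone genes have no intron, and intronless genes outside the clusters were set beside them. Among the members, Hist1h2bc and Hist1h2be span 8282 and 37455 bases in RefSeq, with 2 and 3 transcripts, so these genes may not be intronless in all forms. Of 10 tested, 1 rose after U2af65 knockdown (Sox12, a transcription factor, by 0.88, SE 0.22, edgeR adjusted p = 0.0490) and 0 fell, with a median of 0.13. Of all 11237 genes tested 205 were called higher. After Ptbp1 knockdown 0 passed in edgeR (median 0.14), with Irs2 at -0.48 and Jun at 0.46 furthest from 0. In shnSR100 all 10 were lower than in shGFP, beside 4842 of 11106 genes, with a median of -0.38, while 7 of the 8 histone members were higher.

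**Figure D5:**
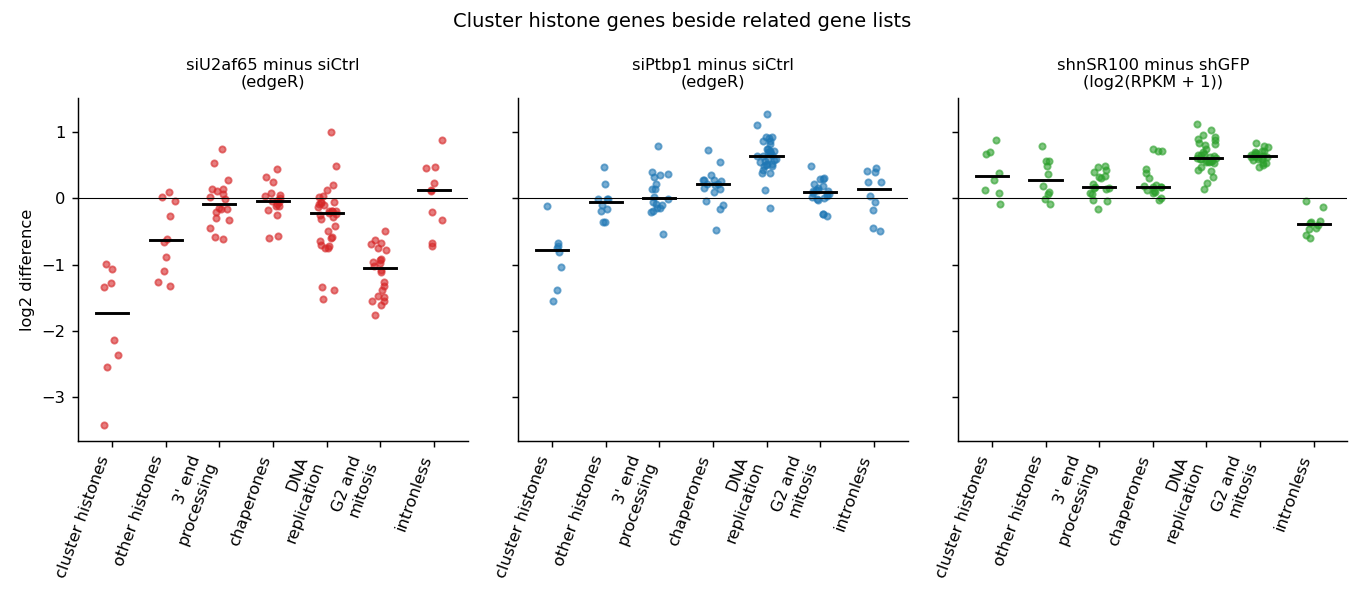
log2 differences of the tested genes of 7 lists in 3 comparisons, 1 point per gene with a bar at the list's median (edgeR for both siRNA comparisons, log2(RPKM + 1) without replicates for the hairpin files). The cluster histone members have the lowest median of the 7 lists after U2af65 knockdown (-1.74) and after Ptbp1 knockdown (-0.77), while in shnSR100 their median (0.34) lies between those of the DNA replication (0.61) and the intronless genes (-0.38).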

How the data were processed

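Per the labels, polyA RNA of N2A cells was sequenced, and 6 N2A files cover 8 samples, each hairpin file holding 2 combined runs. The 293T and crosslinking samples were not analysed here. The deposited files give per gene a read count and an RPKM computed by the authors. Per the submitters' processing notes, Bowtie, bedtools 2.17.0 and mm9 were used, in roles not stated. Counting rule, strand use and annotation are not given in the sources used here. For 1114 genes no RPKM is given.

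Symbols were matched to 20759 of 22667 identifiers, and all 13 members to RefSeq genes. edgeR 4.0.16 (R 4.3.3) was run on the counts of the 4 siRNA libraries: TMM, a mean of 1 RPKM or more (11237 genes), quasi-likelihood test, Benjamini-Hochberg over all genes, threshold 0.05. The 1 residual degree of freedom comes from the siCtrl pair and was moderated with 8.65 prior degrees of freedom (common dispersion 0.0375). The SE is the fold change divided by the root of its F. Comparisons of hairpin files and sums were not tested, and their intervals cover counting error only. DESeq2 1.42.0, limma 3.58.1, other filters, scalings and controls were alternatives.

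The members and gene lists were chosen with earlier results of these data known. Named were, per class, members past the test, the 3 with the most reads and the largest rise and fall, and of the lists the called genes (up to 4 per comparison) or else the 2 with the largest difference.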

Additional observations from a re-analysis of the deposited data

How the results depend on the processing

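No paired analysis was possible because a fit with the letter as a block leaves no residual degree of freedom in 4 siRNA libraries, and the numbered runs of the hairpin lines were combined in 1 file each. Against the siCtrl library of the same letter, without a test, the members' median was -2.003 for siU2af65 and -0.50 for siPtbp1. The number of members called lower after U2af65 knockdown (3) was 5 with limma on log2(RPKM + 1) or log2(RPKM + 0.1), 5 without a filter on low genes, 2 with a mean of 5 RPKM or more and 0 with shGFP added to the controls. The all-gene count of lower calls (384) was 578 with library totals, 706 with DESeq2, 630 and 644 with limma, 961 without the filter, 183 with a mean of 5 RPKM or more and 0 with shGFP, so it also moved where the members' count did not. For siU2af65 against siPtbp1 the count (0) was 2 with library totals, 1 with DESeq2, 1 with limma on log2(RPKM + 1), and 2 each with limma on log2(RPKM + 0.1) and without a filter. For siPtbp1 it was 0 throughout, while all-gene lower calls ran from 0 to 91. Why these counts moved was not tested. A mean of at least 10 reads, added after seeing the data, gave 3, 0 and 0 members. No tested member's call reversed. The median of the members tested kept its sign in every alternative, at -2.17 to -1.08 for siU2af65 (without siCtrl a or b -1.45 and -2.003), -1.20 to -0.50 for siPtbp1 and -1.51 to -0.68 for their contrast. Library totals moved the all-gene median for siU2af65 from -0.00 to 0.10.

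In the hairpin files 2 members were past 2-fold on log2(RPKM + 0.1) and in TMM-scaled log2 CPM, with medians of 0.42 in both, and the median was 0.18 with a mean of at least 5 RPKM. Without the member with the most reads, class sums in shnSR100 were 216% (H1), 425% (H2A), 156% (H2B), 303% (H4) and 171% (all members) of shGFP. The H4 sum in siPtbp1 was then 95.7% of the controls. These H2A and H4 values are those of Hist1h2ac and Hist1h4i alone, and Hist1h2ac became a member through the shnSR100 file. Depth limits the members with few reads: Hist1h1a, Hist1h2ac and Hist1h2be had 2 to 42 reads per file.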

Other observations

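The stable shGFP line and the siCtrl libraries are both controls, but of different cell populations, and no comparison of the design sets one against the other. For the members' sum, shGFP (53.9 CPM without TMM) lay between siCtrl a (63.0) and siCtrl b (39.1). It also lay between them for Hist1h1c (16.5 CPM, against 25.9 and 12.4), Hist3h2ba (10.6, against 14.7 and 9.88), Hist2h2be and Hist2h4. Other members were outside the range of the siCtrl libraries. Hist1h4i had 10 reads in shGFP against 44 and 46 in siCtrl a and b (0.156 CPM against 0.780 and 0.602), and Hist1h1a 2 reads against 28 and 12. Hist3h2a went the other way, with 10.2 CPM in shGFP against 7.87 and 3.28. So did Hist1h2be, with 27 reads in shGFP against 5 and 19, but it is a member through the 2 hairpin files alone. The median log2 difference in CPM of shGFP was -1.01 from siCtrl a, with 11 of 13 members lower, beside 46.8% of genes. From siCtrl b it was -0.72, with 7 of 13 members lower, beside 47.1% of genes. Hist1h1a, a member through the siCtrl a file alone, had to have fewer reads in shGFP than there. The medians over all 13857 genes with at least 20 reads in a file were 0.06 and 0.04. No replicate of shGFP was at hand, so these values have no test.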
